A study of Mus musculus with 7 samples.

Results

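*Erbb3*, *Erbb2*, *Erbb4* and *Egfr* encode the 4 ErbB receptors, and *Nrg1* (neuregulin 1) and *Hbegf* (heparin-binding EGF-like growth factor) encode ligands of these receptors. The set was taken by gene symbol from the deposited table, and all 6 genes were found among its 14732 entries. RNA was sequenced from pools of outflow tracts (OFTs), the arterial pole of the embryonic heart, dissected from mouse embryos at embryonic day 11.5. The comparison asked which genes differ in OFTs of embryos heterozygous for a *Gata6* allele with an early stop codon made by CRISPR-Cas9 (Gata6STOP/+, 4 pools, replicates 1, 3, 4 and 5) and in control OFTs with both *Gata6* copies intact (WT, 3 pools, replicates 3, 4 and 5). Per the labels, each pool held 4 pairs of OFTs from untreated embryos. The labels' design text gives 3 pools per genotype, and all 7 labelled pools were used. The line came from a single selected founder, the edit is present in every cell of the embryo, and the founder was backcrossed to C57BL/6. The study's resource list names *Mib1* mutant lines as the background of the edit, and the *Mib1* genotype of the pooled embryos is not given in the sources used here. How litters were spread over the pools is not given either, so *P*-values measure the spread between these pools.

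ErbB receptors are tyrosine kinases that signal as pairs. ERBB2 has no known ligand of its own and serves as the preferred partner of the others, ERBB3 is a weak kinase that depends on its partner, and NRG1 binds ERBB3 and ERBB4, whereas HB-EGF binds EGFR and ERBB4. In the embryonic heart, NRG1 from the endocardium acts on ERBB2 and ERBB4 of the myocardium, ERBB3 is known from cushion mesenchyme, neural crest and Schwann cell precursors, and HB-EGF and EGFR are known for restraining the mesenchyme of the developing valves.

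Levels are given in CPM, the deposited reads of a gene scaled to a common library total with the TMM factors of edgeR. The recovered depth was 17783655 to 29035529 reads in control and 24736761 to 34467710 in Gata6STOP/+ pools. *Gata6*, the targeted gene, was at 257 to 315 CPM in control and 203 to 268 CPM in Gata6STOP/+ pools, with 3 of the 4 Gata6STOP/+ pools below every control pool (log2 fold change −0.34, limma adjusted *P*-value = 0.389). Gata6STOP/+ replicate 1, at 268 CPM, was the exception, and without it the log2 fold change of *Gata6* was −0.42. The same pool lay within the control range for *Erbb3* and *Nrg1*. Markers of the labelled tissue were listed in full for myocardium (11 of 11), endothelium and endocardium (10 of 10) and cushion mesenchyme (10 of 10), whereas 3 of 11 epithelial markers were listed and *Epcam* and *Cdh1* were not among them. Genes were compared by limma on log2(CPM + 0.5), two-sided, and *P*-values were adjusted over the whole table of 14732 genes (Benjamini–Hochberg). By limma, 0 genes (0% of those tested) had an adjusted *P*-value under 0.05 and 1187 (8.06%) an unadjusted *P*-value under 0.05. On the recovered reads, edgeR's quasi-likelihood test called 0 genes (1177 unadjusted), its likelihood ratio test 105 (0.713%, or 118 and 0.801% with the replicate number as a block) and DESeq2 88 (0.597%). None of the 6 ErbB genes was called by any of these tests. The study itself ran a pathway analysis on the genes its own edgeR fit called. There it names *Erbb3* in a category depleted in Gata6STOP/+ OFTs, cell movement of neurons.

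Within the family, the 6 genes split evenly by direction. *Erbb3*, *Erbb2* and *Nrg1* had lower means in Gata6STOP/+ pools, at 75.4%, 89.9% and 82.2% of the control mean, and *Erbb4*, *Egfr* and *Hbegf* had higher means, at 109%, 111% and 112%. The 3 lower genes were those with an unadjusted limma *P*-value under 0.05 (0.0077 for *Erbb3*, 0.0321 for *Erbb2* and 0.0362 for *Nrg1*), where 8.06% of all genes had one and 3.88% had one with a lower mean in Gata6STOP/+ pools. Limma adjusted *P*-values over all genes were between 0.419 (*Erbb3*) and 0.826 (*Egfr*). The groups did not overlap for 1 of the 6 genes, *Hbegf*, where 8.47% of all genes had groups that did not overlap. The median log2 fold change of the 6 genes was −0.01, and that of all genes was −0.00073. With 3 pools against 4, the smallest two-sided *P*-value of an exact permutation test over the 35 partitions of the pools is 0.0571.

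**Figure D1:**
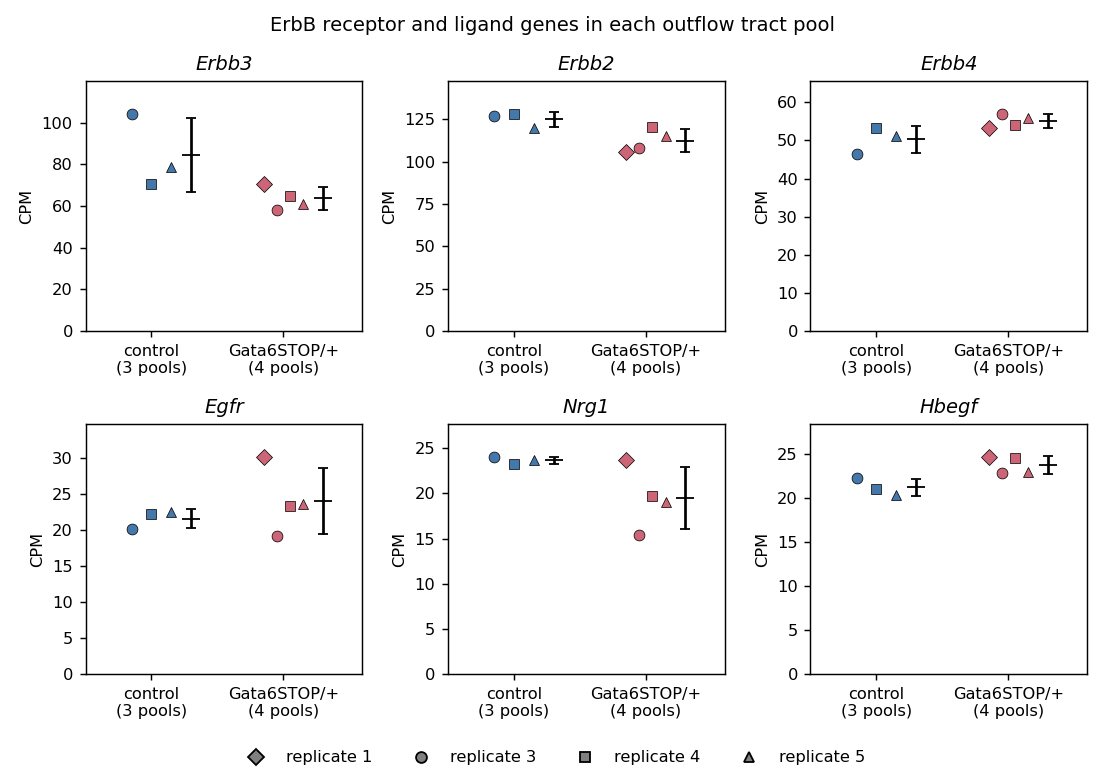
CPM (linear axis from 0) of the 6 genes in each pool, with controls in blue and Gata6STOP/+ pools in red, symbols for the replicate number, and bars for the mean and SD of each group. *Erbb3* control pools spread from 70.4 to 104 CPM, *Nrg1* control pools sit within 23.2 to 24.0 CPM, and *Hbegf* is the gene whose groups do not overlap.

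*Erbb3* (ENSMUSG00000018166, GRCm38 chromosome 10, 128567523 to 128589652, minus strand), the receptor for neuregulins known from neural crest and its glial derivatives, had the largest difference of the 6. Its level was 104, 70.4 and 78.6 CPM in control replicates 3, 4 and 5. In Gata6STOP/+ replicates 1, 3, 4 and 5 it was 70.5, 58.0, 64.9 and 61.1 CPM. The groups met at a single point, since Gata6STOP/+ replicate 1 lay just above control replicate 4, and the 3 other Gata6STOP/+ pools lay below every control pool. The means were 84.4 ± 17.7 CPM (SD, n = 3) and 63.7 ± 5.37 CPM (SD, n = 4), a log2 fold change of −0.39 with a standard error of 0.12 and a 95% interval from −0.65 to −0.13 (limma adjusted *P*-value = 0.419). An exact permutation test gave *P* = 0.114. The spread between control pools was 20.9% of their mean, and counting error alone, at 1403 to 2174 reads per pool, was at most 2.67%. Without control replicate 3, the highest pool, the log2 fold change was −0.23 (limma adjusted *P*-value = 0.705), and the unadjusted *P*-value stayed under 0.05 whichever pool was left out, from 0.0013 to 0.0293.

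Markers of neural crest and Schwann cell precursors had a lower summed level in every Gata6STOP/+ pool than in every control pool, which no longer held without *Ednrb*. Of 14 such markers, 10 were listed, 7 of them lower and 3 higher in Gata6STOP/+ pools, with a median log2 fold change of −0.29 and 0 genes past the adjusted threshold of limma, where 3 had an unadjusted *P*-value under 0.05 and a lower mean in Gata6STOP/+ pools, as did 3.88% of all genes. Their summed level was 97.3 to 151 CPM in control and 72.0 to 90.5 CPM in Gata6STOP/+ pools, and without *Ednrb*, left out after its values were seen, 69.5 to 95.8 and 54.8 to 74.4 CPM. The 3 with an unadjusted *P*-value under 0.05 were *Ednrb*, *L1cam* and *Cdh19*, of which the latter pair is named because of its values. *Ednrb*, the endothelin receptor of neural crest cells, measured 22.5, 81.0 and 27.8 CPM in the controls (replicates 3, 4 and 5) against 14.1 to 18.6 CPM in Gata6STOP/+ pools. *L1cam*, a cell adhesion gene of neurons and crest cells, measured 43.1, 21.6 and 24.4 CPM in the same controls against 16.7 to 20.5 CPM, so that it was highest in control replicate 3, as *Erbb3* was, whereas *Ednrb* was highest in control replicate 4, where *Erbb3* was lowest of the controls. *Sox10*, a defining factor of migrating crest and glia, was low, at 5.32, 2.66 and 2.35 CPM in control and 2.49 to 2.89 CPM in Gata6STOP/+ pools, with its highest level in control replicate 3. *Foxd3*, *Fabp7* and *Gfra3* were among the markers not listed. Relative to the mean log2 level of the 10 markers in the same pool, *Erbb3* differed between genotypes by −0.10, against −0.39 for *Erbb3* alone, and by −0.19 relative to the 9 markers other than *Ednrb*, with overlapping groups both times. Relative to the 3 listed epithelial markers the difference was −0.43, and relative to the 8 listed neuron markers it was −0.40. *Erbb3* was not set against the cushion mesenchyme markers, although ERBB3 is also known from that tissue. The mean log2 level of the cushion mesenchyme markers differed by −0.15 between genotypes. Among the controls that mean was highest in replicate 3 and lowest in replicate 4, as *Erbb3* was. The mean of the 10 crest and Schwann precursor markers was highest in control replicate 4. The part of crest, Schwann precursor or cushion cells in the *Erbb3* difference was not tested. In pooled tissue, fewer cells of a type and less RNA per cell cannot be told apart.

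**Figure D2:**
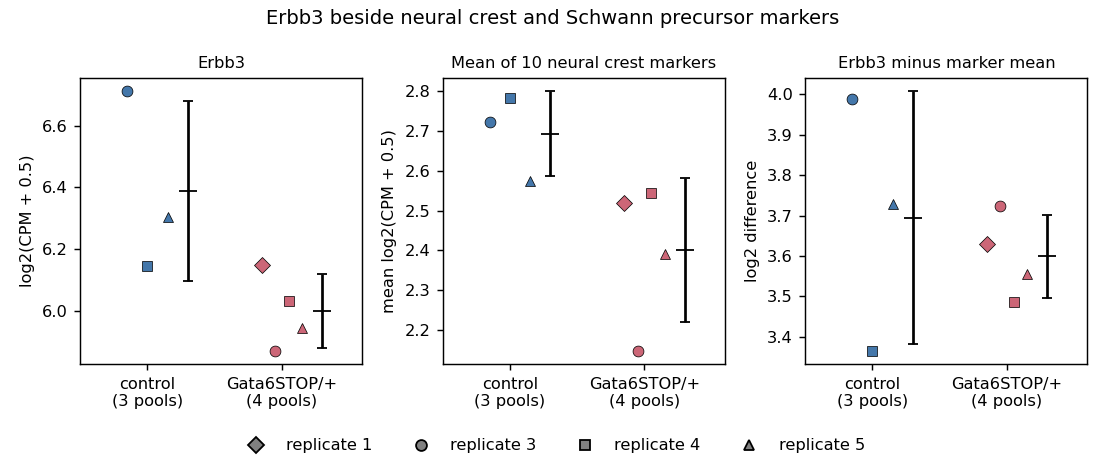
*Erbb3* on the log2(CPM + 0.5) scale (left), the mean of the 10 listed neural crest and Schwann precursor markers on the same scale (middle) and the difference of these values within a pool (right), by pool, with the mean and SD of each group beside the points. In the right panel the control pools span 3.36 to 3.99 and the Gata6STOP/+ pools lie inside that span.

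*Erbb2* (ENSMUSG00000062312, chromosome 11, 98412470 to 98437716, plus strand), the shared partner receptor, measured 127, 128 and 120 CPM in control replicates 3, 4 and 5. It measured 106, 108, 120 and 115 CPM in Gata6STOP/+ replicates 1, 3, 4 and 5. Of the Gata6STOP/+ pools, 3 lay below every control pool, and replicate 4 lay just above control replicate 5. The means of 125 ± 4.66 (SD, n = 3) and 112 ± 6.81 CPM (SD, n = 4) gave a log2 fold change of −0.15 with a standard error of 0.063 (*P*-values 0.567 by limma, adjusted, and 0.114 by exact permutation). Its unadjusted limma *P*-value stayed under 0.05 in 3 of the 7 fits that left out 1 pool. At 2137 to 3972 reads per pool, *Erbb2* was the best counted of the 6 genes. *Mien1*, on the opposite strand, overlaps the annotated span of *Erbb2*, and the library kit keeps the strand, but the counting setting is not given in the sources used here.

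*Erbb4* (ENSMUSG00000062209, chromosome 1, 68032186 to 69108059, minus strand), the neuregulin receptor of the myocardium, measured 46.3, 53.3 and 51.1 CPM in control replicates 3, 4 and 5. Gata6STOP/+ replicates 1, 3, 4 and 5 held 53.2, 57.0, 53.9 and 56.0 CPM. The groups overlapped where control replicate 4 lay just above Gata6STOP/+ replicate 1. Means of 50.3 ± 3.58 (SD, n = 3) and 55.0 ± 1.76 CPM (SD, n = 4) gave a log2 fold change of 0.13 with a standard error of 0.066 (*P*-values 0.663 by limma, adjusted, and 0.114 by exact permutation). It was 0.07 without control replicate 3, the lowest pool. Of the 11 myocardial markers, 9 were lower in Gata6STOP/+ pools (median log2 fold change −0.09), and their summed level was 18720 to 20680 CPM in control and 15685 to 21291 CPM in Gata6STOP/+ pools. Relative to the mean log2 level of these markers, *Erbb4* differed by 0.41 between genotypes with overlapping groups. The marker with the largest difference, *Nppa*, a natriuretic peptide gene named because of its value, spread from 18.3 to 174 CPM among the control pools and from 3.26 to 28.3 CPM among the Gata6STOP/+ pools, and without it the difference of *Erbb4* was 0.21. Relative to the same markers *Erbb2* differed by 0.12, and by −0.08 without *Nppa*, with overlapping groups, against −0.15 for *Erbb2* alone. *Myh7*, the myocardial marker with the highest mean CPM over the 7 pools (not divided by length, as for the other marker lists), was at 8539 to 9585 CPM in control and 7155 to 9241 CPM in Gata6STOP/+ pools.

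*Egfr* (ENSMUSG00000020122, chromosome 11, 16752203 to 16918158, plus strand), the receptor of EGF and HB-EGF, measured 20.1, 22.2 and 22.5 CPM in control replicates 3, 4 and 5. In Gata6STOP/+ replicates 1, 3, 4 and 5 it was at 30.1, 19.1, 23.3 and 23.6 CPM, so that the highest and the lowest of all 7 pools were both of that genotype. Means were 21.6 ± 1.30 (SD, n = 3) and 24.1 ± 4.54 CPM (SD, n = 4), with a log2 fold change of 0.14 and a 95% interval from −0.15 to 0.42 (limma adjusted *P*-value = 0.826, exact permutation *P* = 0.457). The log2 fold change was 0.02 without Gata6STOP/+ replicate 1, the highest pool, and 0.24 without Gata6STOP/+ replicate 3, the lowest. Cushion mesenchyme markers, 9 of 10 of them lower in Gata6STOP/+ pools, ranged as a sum from 7315 to 8175 CPM in control and from 5977 to 8746 CPM in Gata6STOP/+ pools. Set against the mean log2 level of these markers in the same pool, *Egfr* differed by 0.29 on average. Every Gata6STOP/+ pool was then above every control pool, and no test was run on this difference. No other comparison of an ErbB gene with a marker list had groups without overlap. The share of all genes that separate against these markers was not computed. The marker mean itself differed by −0.15, with *Pdgfra* (−0.50) and *Postn* (−0.47), named because of their values, the lowest. Relative to the 3 listed epithelial markers (*Krt8*, *Krt18* and *Sox2*) *Egfr* differed by 0.10 with overlapping groups. The other markers of that list, *Epcam* and *Cdh1* among them, were not listed, and whether the 3 stand for epithelium here was not tested. *Col3a1*, the mesenchymal marker with the highest mean CPM, was at 2073 to 2127 CPM in control and 1364 to 2449 CPM in Gata6STOP/+ pools.

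*Nrg1* (ENSMUSG00000062991, chromosome 8, 31814551 to 32884029, minus strand) encodes neuregulin 1 in many forms. Its 18 annotated transcripts are summed in 1 value per pool, so the membrane-bound and secreted forms could not be separated. Control replicates 3, 4 and 5 held 24.0, 23.2 and 23.7 CPM. The level was 23.7, 15.4, 19.7 and 19.0 CPM in Gata6STOP/+ replicates 1, 3, 4 and 5. Gata6STOP/+ replicate 1 stood among the controls, and the other 3 Gata6STOP/+ pools were lower than every control pool. The means were 23.6 ± 0.402 (SD, n = 3) and 19.4 ± 3.42 CPM (SD, n = 4), a log2 fold change of −0.29 with a standard error of 0.12 and a 95% interval from −0.56 to −0.02 (*P*-values 0.581 by limma, adjusted, and 0.171 by exact permutation). The control pools differed by 1.70% of their mean, less than the 3.85% to 4.86% that counting error alone gives at 423 to 676 reads per pool. The difference was −0.39 without Gata6STOP/+ replicate 1, where the limma unadjusted *P*-value was 0.0032, and −0.19 without Gata6STOP/+ replicate 3. In the other 6 fits that left out 1 pool the unadjusted *P*-value was above 0.05.

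*Hbegf* (ENSMUSG00000024486, chromosome 18, 36504927 to 36515805, minus strand), a ligand shed from the membrane, measured 22.3, 21.0 and 20.4 CPM in control replicates 3, 4 and 5. Its level was 24.7, 22.9, 24.6 and 23.1 CPM in Gata6STOP/+ replicates 1, 3, 4 and 5. Every Gata6STOP/+ pool was above every control pool, as for 4.31% of all genes, with control replicate 3 nearest to the other group. Means of 21.3 ± 0.973 (SD, n = 3) and 23.8 ± 0.993 CPM (SD, n = 4) gave a log2 fold change of 0.16 with a standard error of 0.074 and a 95% interval from −0.0041 to 0.32 (limma adjusted *P*-value = 0.631). The exact permutation test gave *P* = 0.0571, the smallest value it can give. With 365 to 793 reads per pool, counting error was 3.55% to 5.23%, about as large as the spread of 4.57% between control and 4.17% between Gata6STOP/+ pools.

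Both ligands are known from the endocardium, whose markers overlapped between genotypes as a sum. Of 10 endothelial and endocardial markers, 8 were higher and 2 lower in Gata6STOP/+ pools (median log2 fold change 0.08, 0 past the adjusted threshold of limma and 1 with an unadjusted *P*-value under 0.05), and their sum was 865 to 1165 CPM in control and 943 to 1153 CPM in Gata6STOP/+ pools. *Tek*, the angiopoietin receptor and the marker with the highest mean CPM over the 7 pools, was at 166 to 174 CPM in control and 167 to 201 CPM in Gata6STOP/+ pools. Relative to the mean log2 level of these markers, *Nrg1* differed by −0.29 and *Hbegf* by 0.16, as large as without that reference, and both groups overlapped. The marker mean itself differed by 0.0018. Its 2 lower markers, *Emcn* (−0.55) and *Npr3* (−0.48), are named because of their values. Both were highest in control replicate 4, at 35.2 and 100 CPM, and no comparison without them was run.

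**Figure D3:**
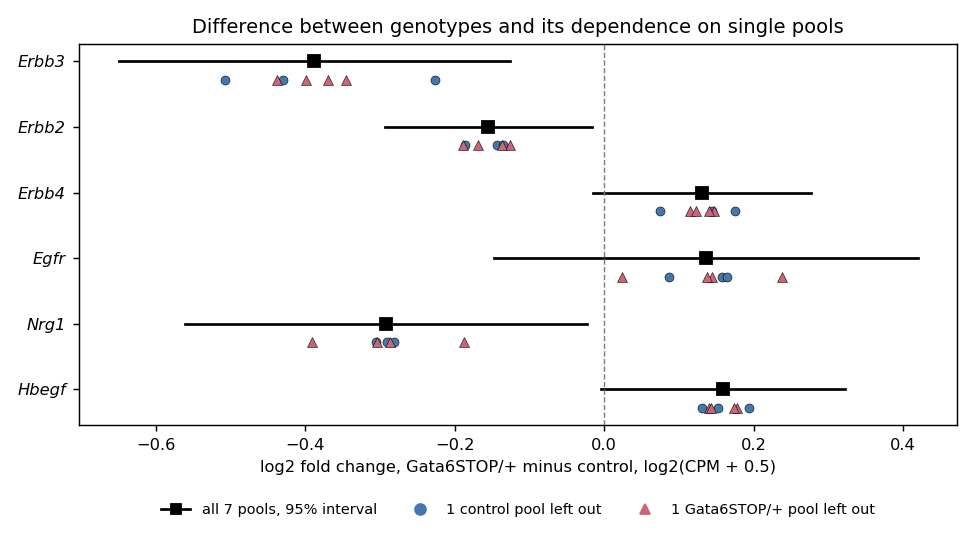
Log2 fold change (Gata6STOP/+ minus control, log2(CPM + 0.5)) of the 6 genes. Black squares and lines give the value and 95% interval from all 7 pools, and small symbols the value with 1 control (blue circles) or 1 Gata6STOP/+ pool (red triangles) left out. Every small symbol lies on the same side of 0 as its square, and *Egfr* comes nearest to 0.

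Per length, *Erbb2* was the most abundant of the 6 genes. Over the union of annotated exons, its level was 24.0 ± 0.894 CPM per kb (SD, n = 3) in control and 21.6 ± 1.31 CPM per kb (SD, n = 4) in Gata6STOP/+ pools. *Erbb3* followed, at 14.0 ± 2.94 and 10.6 ± 0.892 CPM per kb. *Hbegf* was at 4.40 ± 0.201 and 4.93 ± 0.205 CPM per kb, and *Erbb4* at 4.07 ± 0.289 and 4.45 ± 0.143 CPM per kb. *Nrg1*, at 2.28 ± 0.0389 and 1.88 ± 0.331 CPM per kb, and *Egfr*, at 1.91 ± 0.115 and 2.12 ± 0.401 CPM per kb, came last. *Hbegf* exceeded *Erbb4* in all 7 pools although their ranges over the pools overlapped, and *Nrg1* exceeded *Egfr* in the 3 control pools and lay below it in the 4 Gata6STOP/+ pools, by this length. By this length, the ranges of all other neighbours were apart. Among the 14716 genes with an annotated length, *Erbb2* ranked above 84.7%, *Erbb3* above 70.9% and *Egfr* above 25.8%.

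The choice of length mattered for the ligands. Per kb of the longest coding transcript (2375 bases for *Hbegf* and 5415 for *Nrg1*, against 4834 and 10351 bases of annotated exons), *Hbegf* was at 8.96 and *Nrg1* at 4.37 CPM per kb in control pools. The order of the means over all 7 pools stayed as before, whereas in control pools the mean of *Nrg1* was then above that of *Erbb4* (4.17 CPM per kb). The range of *Hbegf* then reached into that of *Erbb3*, and the range of *Nrg1* overlapped those of *Erbb4* and *Egfr*. Within each of the 7 pools *Nrg1* was then above *Egfr*, so their change of order between genotypes was seen only per kb of all exons. Which transcripts were in use was not measured.

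**Figure D4:**
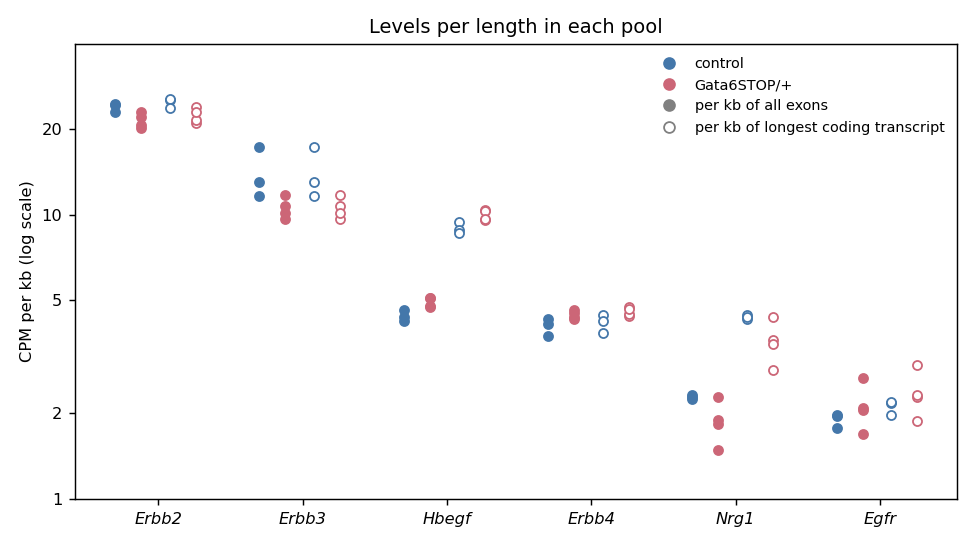
CPM per kb (log axis) of the 6 genes in each of the 3 control (blue) and 4 Gata6STOP/+ pools (red), with filled points per kb of all annotated exons and open points per kb of the longest coding transcript. *Erbb2* lies highest, above 20 CPM per kb in all pools by either length, and the open points of *Hbegf* and *Nrg1* lie well above their filled points.

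ERBB2 pairs with each of the other receptors, and the ratio of a receptor to *Erbb2* in CPM within a pool does not depend on how pools were scaled. The *Erbb4* to *Erbb2* ratio of CPM was 0.365, 0.415 and 0.427 in control replicates 3, 4 and 5. It was 0.504, 0.528, 0.448 and 0.485 in Gata6STOP/+ replicates 1, 3, 4 and 5. Every Gata6STOP/+ pool was thus above every control pool. The groups overlapped for each of these genes alone, and the share of all gene pairs whose ratio separates in this way was not computed. On the log2 scale, taken with 0.5 CPM added to each gene, the ratio differed by 0.29 (−1.31 ± 0.12 in control, SD, n = 3, and −1.02 ± 0.0994 in Gata6STOP/+ pools, SD, n = 4), with an exact permutation *P* of 0.0571, the smallest possible, or 0.171 adjusted over the 3 ratios tested. The *Egfr* to *Erbb2* ratio also differed by 0.29 (exact permutation *P* = 0.114, adjusted 0.171), with overlapping groups, and by 0.15 without Gata6STOP/+ replicate 1. The *Erbb3* to *Erbb2* ratio differed by −0.23 (exact permutation *P* = 0.229, adjusted 0.229). In CPM, its values were 0.822, 0.548 and 0.657 in control replicates 3, 4 and 5 and 0.668, 0.538, 0.540 and 0.529 in Gata6STOP/+ replicates 1, 3, 4 and 5. Without control replicate 3 its log2 difference was −0.08.

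**Figure D5:**
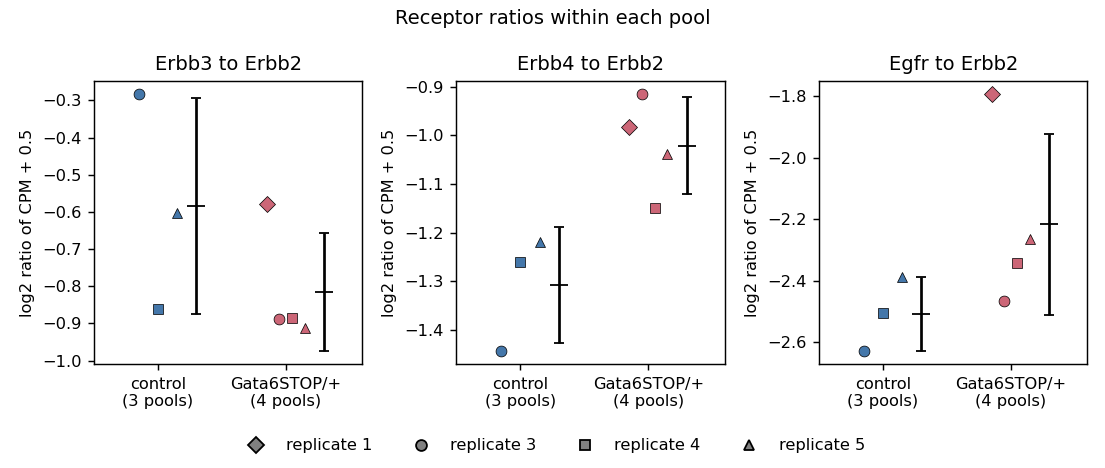
Log2 ratio of CPM + 0.5 of *Erbb3*, *Erbb4* and *Egfr* to *Erbb2* in each pool, with the mean and SD of each group beside the points. The *Erbb4* panel is the one without overlap, and Gata6STOP/+ replicate 1 lies apart from the other 3 Gata6STOP/+ pools in the panels of *Erbb3* and *Egfr*.

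As shares of the summed level of the 4 receptors per kb, *Erbb2* made up 54.6% ± 3.12 (SD, n = 3) in control and 55.7% ± 2.46 (SD, n = 4) in Gata6STOP/+ pools, a difference below the spread between pools. *Erbb3* made up 31.7% ± 4.67 and 27.3% ± 1.87, and *Egfr* 4.36% ± 0.519 and 5.48% ± 0.956. The mean share of *Erbb4* was 9.29% in control and 11.5% in Gata6STOP/+ pools. It ran from 7.94% to 10.1% in control and from 10.8% to 12.6% in Gata6STOP/+ pools, without overlap. This share uses the same *Erbb4* and *Erbb2* values as the ratio above, so it is not an independent result.

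Other genes of the pathway were taken from 5 hand-written lists with 101 genes in all, of which 91 were listed. By limma, 0 of the 91 had an adjusted *P*-value under 0.05. An unadjusted *P*-value under 0.05 was seen for 2 that were higher and 4 that were lower in Gata6STOP/+ pools, or 6.59%, near the 8.06% of all genes. Their median log2 fold change was 0.0043. Groups did not overlap for 3 genes that were higher (*Adam9*, *Adam10* and *Wwp1*) and 4 that were lower in Gata6STOP/+ pools (*Bace2*, *Hgs*, *Mapk3* and *Etv4*), or 7 of the 91, where 8.47% of all genes had groups that did not overlap.

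Of 9 other ErbB ligands, 4 were listed (0 past either threshold), and *Areg*, *Ereg*, *Epgn*, *Nrg3* and *Nrg4* were not. *Tgfa*, the EGFR ligand with the highest level per length of the 4, was at 6.44 ± 0.395 CPM (SD, n = 3) in control and 6.27 ± 0.787 CPM (SD, n = 4) in Gata6STOP/+ pools. *Nrg2*, a second neuregulin, was at 0.794 to 2.30 CPM in control and 1.51 to 2.50 CPM in Gata6STOP/+ pools. Both lay far below *Nrg1* and *Hbegf* per length, since *Tgfa* was at 0.977 and *Nrg2* at 0.563 CPM per kb over all pools.

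The proteases and regulators that release ErbB ligands were all listed (13 of 13, 8 higher and 5 lower in Gata6STOP/+ pools, median log2 fold change 0.02). *Adam10*, a sheddase of EGF and betacellulin, was at 235 to 259 CPM in control and at 266 to 306 CPM in Gata6STOP/+ pools, a log2 fold change of 0.22 (limma adjusted *P*-value = 0.398) without overlap. *Adam19*, a protease implicated in neuregulin processing and the most abundant per length, was at 399 to 477 and 336 to 510 CPM. *Bace2*, of the family of the NRG1-cleaving protease BACE1, was the other gene of the list with an unadjusted *P*-value under 0.05 and is named because of its value, at 34.6 to 42.4 CPM in control and 23.5 to 32.8 CPM in Gata6STOP/+ pools (limma adjusted *P*-value = 0.453).

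Of 20 receptor inhibitors and genes of receptor turnover, 19 were listed, 11 higher and 8 lower in Gata6STOP/+ pools (median log2 fold change 0.03). *Wwp1*, a ubiquitin ligase that acts on ERBB4, was at 63.7 to 72.9 CPM in control and 76.8 to 84.7 CPM in Gata6STOP/+ pools, a log2 fold change of 0.21 (limma adjusted *P*-value = 0.420) without overlap. *Nedd4*, a ubiquitin ligase and the most abundant gene of the list per length, was at 1884 to 2136 and 1941 to 2156 CPM. *Rnf41* and *Hgs* were the lower genes with an unadjusted *P*-value under 0.05 and are named because of their values. *Rnf41*, the ubiquitin ligase that sets ERBB3 levels, was at 47.5 to 48.9 CPM in control and 40.6 to 47.8 CPM in Gata6STOP/+ pools (log2 fold change −0.16, limma adjusted *P*-value = 0.598). *Hgs*, an endosomal sorting protein, was at 65.0 to 70.3 and 59.4 to 62.7 CPM (log2 fold change −0.14, limma adjusted *P*-value = 0.589).

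Of the 37 adaptors and kinases of the cascade, 35 were listed, with log2 fold changes from −0.31 to 0.12, a median of 0.01 and 0 past either threshold by limma. *Pik3r2*, a regulatory subunit of phosphoinositide 3-kinase, had the smallest *P*-value (log2 fold change −0.16, limma adjusted *P*-value = 0.694), and *Akt1*, a kinase downstream of it and the most abundant per length, was at 422 ± 32.2 CPM (SD, n = 3) in control and 397 ± 14.4 CPM (SD, n = 4) in Gata6STOP/+ pools. Of the 22 feedback and transcriptional targets, 20 were listed, 14 lower and 6 higher in Gata6STOP/+ pools (median log2 fold change −0.03).

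*Etv4*, a transcription factor induced by receptor tyrosine kinases, had the smallest *P*-value of the 91 genes. Control replicates 3, 4 and 5 held 22.9, 22.3 and 20.6 CPM. Gata6STOP/+ replicates 1, 3, 4 and 5 held 16.7, 15.5, 19.0 and 15.3 CPM. Every Gata6STOP/+ pool was thus below every control pool, as for 4.16% of all genes. Its log2 fold change of −0.40 had a standard error of 0.094 (limma adjusted *P*-value = 0.260). *Etv4* was called by edgeR's likelihood ratio test (adjusted *P*-value = 0.0452) and by no other fit, and DESeq2 gave an adjusted *P*-value of 0.0559. It also responds to other receptor kinases, such as those of fibroblast growth factors. *Ccnd1*, a cell cycle target and the most abundant gene of that list per length, was at 232 ± 21.6 (SD, n = 3) and 218 ± 5.96 CPM (SD, n = 4).

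Genes with the pattern most like that of each ErbB gene were taken by the root mean square difference of log2(CPM + 0.5) over the 7 pools, each gene centred on its own mean, among the 11626 other genes whose mean level was 5 CPM or more. With 7 pools that share their depth and makeup, close neighbours are found for any gene, and the names below are a description. For *Erbb3*, whose own spread by the same measure was 0.259, they included *Epha1* (0.0726), an ephrin receptor kinase, and *Cnrip1* (0.0736). For *Nrg1* (own spread 0.219) they were *Slc1a4* (0.0477), an amino acid transporter, *Fam110b* (0.0539) and *Antxr1* (0.0608). The neighbours of *Egfr* (own spread 0.191) were *Pde3a* (0.0385), a cyclic nucleotide phosphodiesterase, *Dclk1* (0.0392) and *Zik1* (0.0439).

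The flatter genes had nearer neighbours in absolute terms. For *Erbb2* (own spread 0.0997) they were *Trmt1* (0.0275), *Spns1* (0.0282) and *Scamp3* (0.0352). For *Erbb4* (0.0904) they were *Vps37a* (0.0159), *Ube2k* (0.0162) and *Inip* (0.0168), and for *Hbegf* (0.0941) they were *Tram2* (0.0349), *Mrtfb* (0.0368) and *Plekhf2* (0.0373). Among the 6 genes themselves, the closest pair was *Erbb4* and *Hbegf* (0.110), and the pair farthest apart was *Erbb3* and *Erbb4* (0.349). *Erbb3* was closer to *Nrg1* (0.176) than to *Erbb2* (0.220).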

How the data were processed

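The authors trimmed reads with Cutadapt, quantified genes with RSEM (GRCm38, Ensembl annotation), required 1 CPM in 3 or more samples and normalized with edgeR. The deposited values are TMM-scaled CPM for each pool. Each is a whole multiple of 1 step per pool (100% within 0.01 reads), so reads were recovered. The smallest value above 0 stands for 1 read in 4 pools and for 2, 4 or 6 reads in the other 3. Tests used limma 3.58.1 (trend, R 4.3.3) on log2(CPM + 0.5) with a threshold of 0.05, and exact permutation (scipy 1.17.1). EdgeR 4.0.16 and DESeq2 1.42.0 on the reads, constants of 0.1 and 2, a mean of at least 5 CPM, median-of-ratios scaling, the replicate number as a block, another length and leaving out each pool were alternatives. Fits were tested on simulated reads. Positions, lengths and strands are from GENCODE M21 (GRCm38). The 6 genes and all lists were chosen with earlier results of these data known. Named are the 6 genes, their 3 nearest patterns, the smallest *P*-value and highest level of each pathway list, the highest mean CPM of each marker list, *Sox10*, and genes said to be named for their value. Some genes that this rule takes are not reported here. Fold changes can understate changes of genes with few reads, and intervals of reads cover counting error only.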

Additional observations from a re-analysis of the deposited data

Results flagged for a closer look

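Among 24 quantities checked for a pool far from the other 3 Gata6STOP/+ pools, 1 stood out, and chance alone marks about 1 group in 20. The log2 *Erbb3* to *Erbb2* ratio was −0.58 in Gata6STOP/+ replicate 1 and −0.91 to −0.88 in the other 3, so that the gap made up 0.918 of the whole range. Control pools ran from −0.86 to −0.28. That pool had the highest *Erbb3* and the lowest *Erbb2* level of the 4 Gata6STOP/+ pools.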

How the results depend on the processing

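All 102 alternative values of the 6 log2 fold changes kept their direction and their side of the threshold for adjusted *P*-values. All 30 of the receptor ratios kept their direction, and none of them could have passed the threshold in an exact test of so few pools. With 1 pool left out, the log2 fold change ranged from −0.51 to −0.23 for *Erbb3*, −0.19 to −0.13 for *Erbb2*, 0.07 to 0.17 for *Erbb4*, 0.02 to 0.24 for *Egfr*, −0.39 to −0.19 for *Nrg1* and 0.13 to 0.19 for *Hbegf*. The smallest adjusted *P*-value of any ErbB gene under any alternative was 0.0785, for *Erbb3* under the replicate block in edgeR's likelihood ratio test. Unadjusted *P*-values were less stable. With the replicate block, that of *Erbb2* rose above 0.05, to 0.122 by limma, 0.119 by edgeR's quasi-likelihood test and 0.143 by its likelihood ratio test. Those of *Erbb3* and *Nrg1* stayed under 0.05 with the block. The number of genes called over the whole table moved from 0 to 1 with a constant of 0.1, to 105 by edgeR's likelihood ratio test and to 88 by DESeq2, and ranged from 0 to 13 with 1 pool left out (13 without control replicate 4, 2 without Gata6STOP/+ replicate 3 and 1 without Gata6STOP/+ replicate 1). Among the pathway lists 1 gene, *Etv4*, was called by edgeR's likelihood ratio test, and the cause was not tested.

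Replicates 3, 4 and 5 of the genotypes share a number, and whether they also share a litter or batch is not given. Deviations of same-numbered pools from their group means correlated at −0.0084, −0.118 and −0.0016, and 0 of 6 pools correlated best with their own number. Correlations over 3 pairs of pools cannot decide whether the numbers mark matched pools. With the replicate block, where Gata6STOP/+ replicate 1 has no partner and adds nothing to the contrast, 14 genes were called by limma, 13 by edgeR's quasi-likelihood and 118 by its likelihood ratio test. The log2 fold change was −0.44 for *Erbb3*, −0.13 for *Erbb2* and −0.39 for *Nrg1* in the limma fit with the block, and *Gata6* was called by the likelihood ratio test with the block (−0.42, adjusted *P*-value = 0.0164). The study's own log2 fold change of *Gata6* was also −0.42, whereas edgeR's likelihood ratio test without the block gave −0.34. The study's design formula is not given in the sources used here, so whether its fit used a block or fewer pools is not known. Per kb of the longest coding transcript, control levels moved to 24.9 for *Erbb2*, 2.11 for *Egfr*, 4.37 for *Nrg1* and 8.96 CPM per kb for *Hbegf*. Counting error limits *Egfr*, *Nrg1* and *Hbegf* most, at up to 4.99%, 4.86% and 5.23% per pool.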

Other observations

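Markers of cell types outside the ErbB comparisons are given as values. All 7 red blood cell markers had higher means in Gata6STOP/+ pools (median log2 fold change 0.44, 0 past the adjusted threshold of limma and 1 with an unadjusted *P*-value under 0.05), and their sum was 2287 to 5521 CPM in control and 2664 to 6944 CPM in Gata6STOP/+ pools. *Hbb-y*, an embryonic globin gene and the one with the highest mean CPM, was at 988 to 2348 CPM in control and 1137 to 3102 CPM in Gata6STOP/+ pools. Of 9 macrophage markers, 7 were lower (sum 55.7 to 79.7 CPM in control and 41.8 to 105 CPM in Gata6STOP/+ pools), and *Csf1r*, which had the highest mean CPM (not divided by length), was at 21.9 ± 2.33 (SD, n = 3) and 20.8 ± 8.19 CPM (SD, n = 4). Of 6 epicardial and mesothelial markers, 4 were higher, with a sum of 339 to 414 CPM in control and 300 to 443 CPM in Gata6STOP/+ pools, and *Upk3b* was at 169 to 209 and 167 to 230 CPM. The 8 listed neuron markers (5 higher, median log2 fold change 0.05) summed to 53.5 to 76.3 and 59.6 to 70.2 CPM, and *Tubb3* was at 26.2 to 46.2 CPM in control and 23.7 to 32.8 CPM in Gata6STOP/+ pools. *Stmn2*, a neuron marker named because of its value, went the other way, at 14.1 to 18.9 CPM in control and 19.8 to 23.5 CPM in Gata6STOP/+ pools (log2 fold change 0.40, limma adjusted *P*-value = 0.333). The 3 listed epithelial markers summed to 71.0 to 111 and 85.7 to 118 CPM, with *Krt8* at 43.4 to 71.4 and 49.2 to 73.6 CPM.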
